A study of Sus scrofa with 36 samples.

Results

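The genes described here move calcium in heart muscle cells, most of them at the sarcoplasmic reticulum, and 8 were listed by symbol: ATP2A2, RYR2, PLN, CASQ2, SLC8A1, TRDN, JPH2 and HRC. A pig gene name table gave a row of the count table to 5 of the 8 (ATP2A2, RYR2, SLC8A1, TRDN and HRC), of 25880 genes in the table and 14537 with enough counts to be tested. All 5 passed the filter on low counts. PLN, CASQ2 and JPH2 were not analysed here. RNA counts per gene came from left ventricular tissue of 24 Yorkshire-landrace pigs, as 36 libraries that form 12 groups of 3. In 12 pigs branches of the left anterior descending and circumflex coronary arteries were tied off for good, and 12 pigs had sham surgery. Surgery was done at 2 days of age (called Young here, as in the labels) or at 14 days (Old), and hearts were taken 1 day (Early) or 7 days (Late) later. Age at harvest was therefore 3 days for Young Early, 9 for Young Late, 15 for Old Early and 21 for Old Late pigs. From an infarcted pig, infarct zone (IZ) and border zone (BZ) were each sequenced as 1 library, and from a sham pig 1 library of the anterior left ventricular wall. No allele, strain difference or drug separates the groups, although per the labels all animals received an analgesic and an antibiotic after surgery.

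With each heartbeat, calcium that enters the cell through surface channels opens ryanodine receptors, and the sarcoplasmic reticulum releases its own calcium to the myofilaments. The pump SERCA2, made from ATP2A2, then takes calcium back up, and the sodium-calcium exchanger NCX1, made from SLC8A1, carries the rest out across the surface membrane. Inside the reticulum, triadin (TRDN) ties the release channel RYR2 to the calcium store, and the histidine-rich calcium binding protein HRC binds stored calcium and is known to interact with both triadin and the pump. In mammals this system matures around and after birth, and lower SERCA2 is a known feature of failing heart muscle.

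Library totals ran from 8113200 to 39789874 counts, RNA integrity numbers from 6.3 to 8.4, and the share of mitochondrially encoded genes from 9.75% to 44.1% of counts. Cardiomyocyte markers were present in every library: the 7 measured ones summed to between 46650 and 145560 CPM (counts scaled to a common library size) in Young Early BZ and to between 15138 and 26092 CPM in Old Late IZ. The atrial marker SLN reached at most 3.92 CPM, and the other atrial marker in the table, MYBPHL, did not pass the filter on low counts. Young Early BZ replicate 2 stood apart from its group. It had the highest total and a mean correlation of 0.898 with the other Young Early BZ libraries over log2 CPM, where every other library had at least 0.938 within its own group. Changes against sham in Young Early tissue and the response comparisons that use it are given with and without both libraries of this pig where its value lay apart or a call differed. BZ and IZ tissue is a mixture, so fewer heart muscle cells and less RNA of a gene per cell cannot be told apart in these values.

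ATP2A2 (ENSSSCG00000034386) lay on the plus strand of chromosome 14 from 31674654 to 31744978, in a gene model of 20 exon blocks and 7805 bases. RYR2 (ENSSSCG00000010142), the release channel, lay on the minus strand of chromosome 14 from 53653486 to 54194883, with 99 blocks and 14364 bases. SLC8A1 (ENSSSCG00000036418) lay on the plus strand of chromosome 3 from 99823548 to 100244770, with 13 blocks and 6497 bases. TRDN (ENSSSCG00000027613) had a model of only 9 blocks and 1540 bases, on the plus strand of chromosome 1 from 39180526 to 39339224. HRC (ENSSSCG00000003156) had 7 blocks and 2204 bases on the minus strand of chromosome 6, from 54337488 to 54366064. These positions are the deposited table's own, and the genome build is not given in the sources used here. The model of ATP2A2 shares exon bases with 1 unnamed gene on the same strand, which held 1963 counts over all libraries. TRPM4 lies on the other strand within the span of HRC and shares no exon bases with it. All 5 were well counted: the lowest count in any library was 367 for TRDN and 5658 for ATP2A2, and by mean log2 CPM ATP2A2 stood at the 99.5th percentile of the genes tested and TRDN at the 84.5th.

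Per 1000 bases of gene model, the order of the genes differed with the age of the sham heart. In Young Early Sham, at 3 days of age, HRC was highest at 312 ± 22.6 CPM per kb (SD, n = 3), followed by ATP2A2 at 120.0 ± 31.8, SLC8A1 at 67.3 ± 9.79, TRDN at 51.0 ± 8.16 and RYR2 at 10.9 ± 3.68. In Old Late Sham, at 21 days, ATP2A2 was highest at 398 ± 42.2 CPM per kb. HRC followed at 196 ± 33.5, SLC8A1 at 133 ± 7.90, RYR2 at 68.1 ± 5.89 and TRDN at 41.1 ± 0.499. ATP2A2 and HRC thus stood in opposite order at the ends of the age range, and RYR2 and TRDN did too.

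In sham hearts the pump and the release channel were higher at 15 than at 3 days of age, 1 day after surgery. ATP2A2 was at 912, 1196 and 702 CPM in the 3 Young Early Sham libraries, at 1671, 2723 and 2339 in Young Late Sham, at 2077, 2452 and 2443 in Old Early Sham, and at 3460.2, 2810.3 and 3039.6 in Old Late Sham. The libraries of 3-day hearts lay below all the others, and those of 21-day hearts above all the others. RYR2 was at 133, 217 and 118 CPM in Young Early Sham, at 259, 497 and 549 in Young Late Sham, at 542, 562 and 657 in Old Early Sham, and at 1018, 1036 and 881 in Old Late Sham. Its mean at 21 days was 627% of that at 3 days, against 331% for ATP2A2, 198% for SLC8A1, 80.6% for TRDN and 62.8% for HRC. Changes below are on the log2 scale with the SE of the edgeR quasi-likelihood fit, and a gene is called at a Benjamini-Hochberg adjusted p under 0.05 over all genes tested. From 3 to 15 days (Old Early against Young Early Sham) 2 of the 5 genes were called, both higher, while 17.5% of all genes were called higher. ATP2A2 differed by 1.31 ± 0.48 (adjusted p = 0.0373) and RYR2 by 1.91 ± 0.60 (adjusted p = 0.0191). With 1 library left out the ATP2A2 call held in 1 of 6 fits, the one without Young Early Sham replicate 2 (highest adjusted p = 0.127), and the RYR2 call in 3 of 6, being lost without Young Early Sham replicate 1 or 3 or Old Early Sham replicate 3 (highest adjusted p = 0.0758). SLC8A1 differed by 0.66 ± 0.28 and HRC by −0.52 ± 0.24 with no overlap between the libraries, but neither was called (adjusted p = 0.0668 and 0.0961), and TRDN differed by 0.13 ± 0.28.

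The other sham comparisons called 0 of the 5 genes by edgeR. From 3 to 9 days (Young Sham, Late against Early; 8.74% of all genes called) 2 of the 5 had an unadjusted p under 0.05, limma-voom called 0 and DESeq2 called 1. ATP2A2 differed by 1.26 ± 0.47 (adjusted p = 0.0871) and RYR2 by 1.48 ± 0.59 (adjusted p = 0.106). From 9 to 21 days (10.9% of all genes called) and from 15 to 21 days (0.0275% called) no gene of the 5 had an unadjusted p under 0.05, and neither DESeq2 nor limma-voom called any (0 each). Libraries were prepared in 3 batches, with all Young Early libraries in batch 1, all Old Early libraries in batch 2 and all Old Late libraries in batch 3. With batch 2 against batch 1 as a term, the comparison of 3 with 15 days called neither ATP2A2 (1.21, adjusted p = 0.182) nor RYR2 (1.99, adjusted p = 0.0862) but HRC, which was lower at 15 days (−1.01, adjusted p = 0.0370). With RNA integrity as a covariate it called 0 of the 5. Over the alternatives that keep all libraries and scale to all genes, this comparison called 1400 to 5076 genes (4516 in the main fit). The batch term is estimated from the Young Late groups alone, since every other group lies within 1 batch. Its result for 3 against 15 days is therefore carried over from 9-day hearts. Their 1 sham library in batch 1 was replicate 2, which had the lowest total and the lowest sham HRC value (327 CPM). Batch 3 held the Old Late libraries only, so age at harvest and batch cannot be told apart for the 21-day hearts. Relative to 11 sarcomere and Z-disc genes, described below, the log2 ratio of ATP2A2 was −1.77 ± 0.30 (SD, n = 3) in Young Early Sham and 0.27 ± 0.14 in Old Late Sham, and that of RYR2 −4.38 ± 0.40 and −1.40 ± 0.19.

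**Figure D1:**
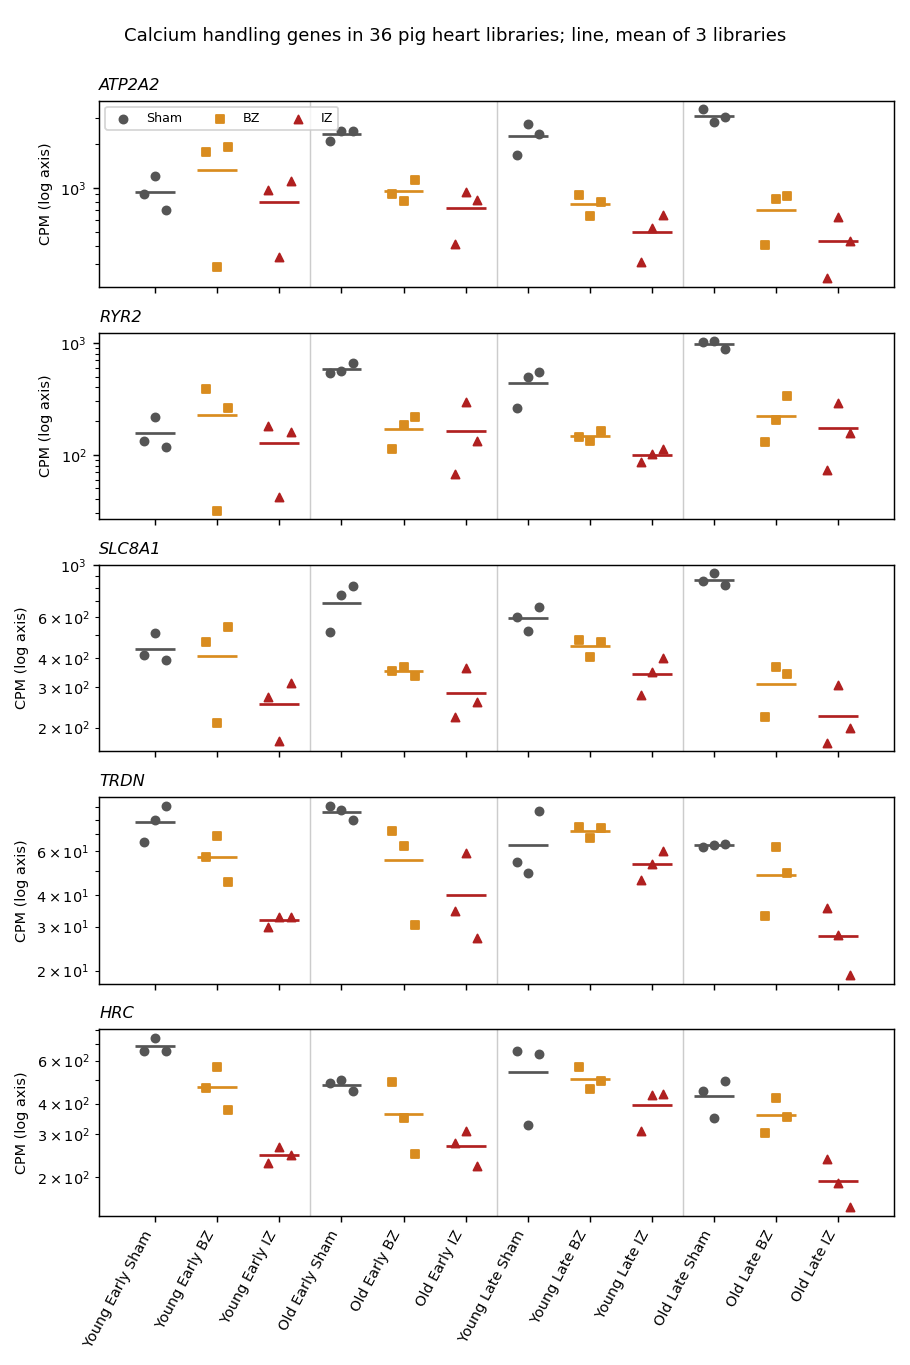
CPM of ATP2A2, RYR2, SLC8A1, TRDN and HRC (1 panel each, log axis) in the 36 libraries, by group; each point is 1 library (circles, sham; squares, BZ; triangles, IZ) and each line the mean of 3 libraries. ATP2A2 sham means climb from 937 CPM in Young Early to 3103 in Old Late, while its IZ means lie between 435 and 803.

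In the infarct zone the number of genes that fell differed between conditions. In Young Early IZ against sham, 3 of the 5 fell, while 27.2% of all genes were called and 12.0% were called lower. The 3 were SLC8A1, TRDN and HRC. All 5 fell in Old Early IZ, where 34.3% of all genes were called and 14.8% were lower. Those that fell in Young Late IZ were 3, ATP2A2, RYR2 and SLC8A1, beside 30.2% of all genes called and 13.0% lower. In Old Late IZ all 5 fell, where 49.1% were called and 24.0% were lower. The median change of the 5 was −0.79, −1.30, −0.80 and −1.94 in these comparisons, where the median of all genes tested lay between −0.04 and 0.08. None of the 5 rose in any of them. IZ and BZ of a condition are compared with the same 3 sham libraries.

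In the border zone fewer genes passed. Young Early BZ called 0 of the 5 by edgeR (1.11% of all genes called, 0.33% lower), with 1 at an unadjusted p under 0.05 and 0 by DESeq2 and limma-voom. In Old Early BZ 3 fell (22.5% of all genes called, 8.46% lower), in Young Late BZ 1 (14.2% called, 6.0% lower) and in Old Late BZ 3 (39.7% called, 19.7% lower). ATP2A2 was among them each time.

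**Figure D2:**
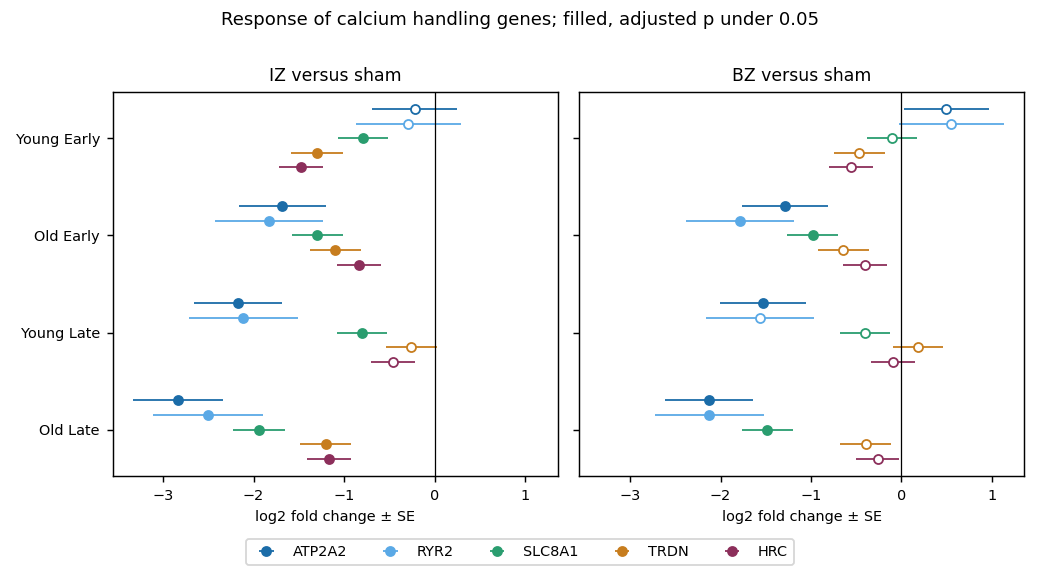
Log2 fold change ± SE against the matching sham group for the 5 genes, in IZ (left) and BZ (right), n = 3 libraries per group; filled points have an adjusted p under 0.05. In Old Late IZ the 5 values run from −2.84 (ATP2A2) to −1.17 (HRC), all filled, and in Young Early BZ all 5 are open.

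The pump gene ATP2A2 had its lowest mean in Old Late IZ, at 239, 635 and 429.5 CPM, and stood at 407, 834 and 884 CPM in Old Late BZ. Every one of these 6 libraries was below the lowest Old Late Sham library. ATP2A2 fell by 2.84 ± 0.50 in Old Late IZ (adjusted p = 3.22e-05), to 14.0% of the sham mean, and by 2.13 ± 0.49 in Old Late BZ (adjusted p = 0.00114), to 22.8%. In Young Late IZ the values were 311, 527 and 655 CPM, and in Young Late BZ 889, 645 and 800.1 CPM. All 6 again lay below their shams. Here ATP2A2 fell by 2.17 ± 0.49 in IZ (adjusted p = 0.00132) and by 1.53 ± 0.48 in BZ (adjusted p = 0.0319). The Young Late BZ call was lost when any of 5 libraries was left out (all 3 BZ libraries and Young Late Sham replicates 2 and 3; highest adjusted p = 0.134). Young Late was the one condition with 2 preparation batches in every group: the IZ difference was −3.13 in batch 1 (1 library against 1) and −1.75 in batch 2 (2 against 2), and the BZ difference −1.77 and −1.38.

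One day after the infarct, ATP2A2 was called lower in both zones of Old pigs and in neither zone of Young pigs, and the zone libraries of the ages overlapped. Old Early IZ held 410.0, 934 and 828 CPM and Old Early BZ 905, 808 and 1139 CPM, all below the 3 Old Early Sham libraries. ATP2A2 fell by 1.68 ± 0.48 in Old Early IZ (adjusted p = 0.00770) and by 1.29 ± 0.47 in Old Early BZ (adjusted p = 0.0491). Neither call was firm: the first was lost without Old Early IZ replicate 1 (−1.40, adjusted p = 0.0605), and the second without any 1 of the 6 libraries (−1.44 to −1.19). Young Early IZ held 959.9, 334 and 1115 CPM and Young Early BZ 1768, 289 and 1899 CPM, with shams at 702 to 1196. Replicate 2, the pig that stood apart, was the lowest library of both zones, and the ranges of zone and sham overlapped. The changes were −0.22 ± 0.47 in IZ (adjusted p = 0.755) and 0.49 ± 0.47 in BZ (adjusted p = 0.605), and without that pig 0.11 and 0.96 (adjusted p = 0.835 and 0.0975).

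With the 12 groups ordered by mean, most neighbours overlapped for every gene: 10 of 11 pairs for RYR2, 9 for SLC8A1, 11 for TRDN and 10 for HRC. The highest mean ATP2A2 level was 7.14-fold the lowest, but of the 11 pairs of neighbours in the ordered list of group means, 10 overlapped between libraries. The exception was Old Late Sham over Old Early Sham. The Old Early BZ, Young Early Sham and Young Early IZ means were 950.3, 937 and 803 CPM. The libraries of these 3 groups overlapped, border zone tissue of 15-day hearts with sham tissue of 3-day hearts among them.

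RYR2, which forms the release channel, was called lower in 5 of the 8 comparisons of a zone with sham. In Old Late IZ it was at 72.9, 289 and 156 CPM and in Old Late BZ at 129, 207 and 337 CPM, against 881 to 1036 in sham. The zone and sham libraries did not overlap. RYR2 fell by 2.50 ± 0.61 in Old Late IZ (adjusted p = 0.00126) and by 2.13 ± 0.60 in Old Late BZ (adjusted p = 0.00661), and the BZ call was lost without Old Late BZ replicate 1 (−1.85, adjusted p = 0.0509). Young Late IZ held 86.3, 102 and 114 CPM, the closest replicates of any RYR2 group in the infarct zone, and RYR2 fell by 2.11 ± 0.61 (adjusted p = 0.00908). Young Late BZ, at 144, 134 and 163 CPM, was below every sham library, but the change of −1.56 ± 0.59 was not called (adjusted p = 0.0747).

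In Old Early IZ RYR2 was at 66.8, 296 and 132 CPM and fell by 1.83 ± 0.60 (adjusted p = 0.0184), and in Old Early BZ at 113, 183 and 216 CPM and fell by 1.78 ± 0.60 (adjusted p = 0.0317). Replicate 2 was the high IZ library. The IZ call was lost without replicate 1 or replicate 3 of Old Early IZ (highest adjusted p = 0.111), and the BZ call without any 1 of the 6 libraries (highest adjusted p = 0.116). In Young Early the IZ libraries stood at 181, 42.3 and 159 CPM and the BZ libraries at 391, 31.7 and 265 CPM, around shams of 118 to 217. BZ replicate 2 gave the lowest RYR2 value of all 36 libraries, and neither change was called (−0.29 ± 0.58 and 0.55 ± 0.58). Without this pig the RYR2 changes were 0.08 and 1.06 (adjusted p = 0.906 and 0.146).

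SLC8A1, the surface exchanger, was called lower in the infarct zone of all 4 conditions. It was at 172, 306 and 199 CPM in Old Late IZ and at 223, 364 and 341 CPM in Old Late BZ, against 853, 923 and 823 CPM in sham. It fell by 1.94 ± 0.29 in IZ (adjusted p = 2.6e-06) and by 1.49 ± 0.28 in BZ (adjusted p = 0.000172), with no overlap, and both calls held when each library was left out in turn. The SE of SLC8A1 was a little over that of HRC and well under those of ATP2A2 and RYR2. In Old Early it fell by 1.30 ± 0.28 in IZ (adjusted p = 0.00073) and by 0.98 ± 0.28 in BZ (adjusted p = 0.0116), and the BZ call was lost without Old Early Sham replicate 3 (adjusted p = 0.0565). In the Young groups the falls were smaller in value. The difference between ages in IZ was not called by edgeR (Early −0.51 ± 0.39, adjusted p = 0.400, and Late −1.14 ± 0.39, adjusted p = 0.0861). Young Early IZ, at 272, 175 and 311 CPM, fell by 0.79 ± 0.28 (adjusted p = 0.0343), and Young Late IZ, at 277, 347 and 400.0 CPM, fell by 0.80 ± 0.28 (adjusted p = 0.0292). Each of these calls was lost without any of 4 libraries: replicates 1 and 2 of IZ in both, with Sham replicates 1 and 2 in Young Early and Sham replicates 1 and 3 in Young Late (highest adjusted p = 0.151 and 0.114). Without the Young Early pig that stood apart SLC8A1 fell by 0.62 in Young Early IZ (adjusted p = 0.0441, with 37.0% of all genes called) and was at 0.20 in Young Early BZ (adjusted p = 0.620). With all libraries, SLC8A1 in Young BZ was at −0.11 ± 0.28 (Early) and −0.40 ± 0.28 (Late), not called.

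TRDN, the anchor protein of the release channel, and HRC, the luminal calcium binder, were lower in the infarct zone at 1 day at both ages. In Young Early IZ the TRDN libraries were at 29.9, 32.8 and 32.8 CPM against 65.3, 79.8 and 90.4 in sham, and HRC at 228, 266 and 246 CPM against 660.1, 745 and 657. Both genes had tight IZ replicates with no overlap, and here the pig that stood apart did not differ from the other 2. TRDN fell by 1.30 ± 0.28 (adjusted p = 0.00151) and HRC by 1.48 ± 0.25 (adjusted p = 0.00012), and both calls held when each library was left out. In Old Early IZ TRDN, at 34.7, 58.7 and 27.0 CPM, fell by 1.10 ± 0.28 (adjusted p = 0.0035), and HRC, at 275, 309 and 223 CPM, by 0.83 ± 0.24 (adjusted p = 0.009). The HRC call was lost without Old Early IZ replicate 3 (adjusted p = 0.0573).

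At 7 days these 2 genes were called in Old pigs, and the difference from Young pigs, given with the age comparison, was not called. In Old Late IZ TRDN was at 35.6, 27.7 and 19.2 CPM and HRC at 236, 190.0 and 150.5 CPM, all below their shams (62.5 to 64.0 and 350.0 to 494). TRDN fell by 1.20 ± 0.28 (adjusted p = 0.000878) and HRC by 1.17 ± 0.24 (adjusted p = 0.000253). In Young Late IZ TRDN was at 46.1, 53.2 and 60.0 CPM and HRC at 309.9, 434 and 438 CPM. IZ replicate 1 lay below every sham library for both genes, and the other 2 lay among the shams. The changes of −0.26 ± 0.28 and −0.46 ± 0.24 were not called (adjusted p = 0.519 and 0.154). Young Late Sham replicate 2, the library with the lowest total, was the lowest sham for both genes, at 48.9 CPM for TRDN and 327 CPM for HRC. In the border zone neither gene was called in any condition, with changes from −0.64 to 0.18 for TRDN and from −0.55 to −0.09 for HRC.

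Infarct and border zone of the same pigs were compared with the animal as a block, over 14386 genes. IZ was below BZ in 12 of 12 pigs for TRDN (log2 ratios −1.07 to −0.10), HRC (−1.08 to −0.08) and SLC8A1 (−1.08 to −0.01), and in 9 of 12 for ATP2A2 and RYR2. The share of all genes that were lower in 12 of 12 pigs was not counted. In Young Early pigs 2 of the 5 genes were called (6.68% of all genes called lower): TRDN fell from BZ to IZ by 0.82 ± 0.19 (adjusted p = 0.0187) and HRC by 0.91 ± 0.19 (adjusted p = 0.015). In Old Late pigs the same 2 genes were called (1.61% of all genes called lower), with TRDN lower by 0.83 ± 0.18 (adjusted p = 0.0447) and HRC by 0.94 ± 0.19 (adjusted p = 0.037). The Old Late pairs agreed closely for TRDN, at −0.80, −0.82 and −0.79, although the IZ and BZ libraries overlapped as groups. Every Old Late call was lost when any 1 of the 6 libraries was left out (highest adjusted p = 0.30 and 0.276), and the Young Early calls without either library of the pigs of replicates 1 and 2 (highest adjusted p = 0.0913 and 0.0697). Old Early and Young Late called 0 of the 5, with 1 each at an unadjusted p under 0.05, 0 by DESeq2 and 0.0% of all genes called lower. The 11 sarcomere and Z-disc genes described below were lower in IZ than in BZ too. Their median was −0.98 in Young Early (6 of 11 called lower), −0.99 in Old Late (5 of 11), −0.47 in Old Early and −0.27 in Young Late (0 each). Their part in the values of the 5 genes was not tested.

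The 5 genes were also set against heart muscle genes, as log2 ratios of their counts to the mean log2 count of 11 sarcomere and Z-disc genes (among them TNNT2, TNNC1, MYBPC3, ACTN2, MYL2 and MYL3). These reference genes fell themselves: 10 of 11 in Young Early IZ, 4 in Young Late IZ, 8 in Old Early IZ and 9 in Old Late IZ, with median changes of −1.40, −0.43, −1.13 and −1.30. The 11 did not all move alike. In Old Late BZ their median change was −0.31 and 4 of 11 were called lower (19.7% of all genes), with MYBPC3 at −1.34 ± 0.32. A ratio to these genes is therefore not a value per heart muscle cell. Marker sums of other cells moved with the reference genes. The sum of 6 fibroblast markers ran from 1056 to 1299 CPM in Old Late Sham and from 13059 to 16769 CPM in Old Late IZ, with none of the markers at 0 in all libraries, and that of 6 macrophage markers from 94.5 to 136 CPM and from 572 to 765 CPM. Neutrophil markers, 3 of them, summed to at most 0.958 CPM in Old Early Sham and to between 33.9 and 289 CPM in Old Early IZ. The part of these cells in the changes was not tested.

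Relative to the reference genes, TRDN and HRC were called in none of the 8 zone comparisons. TRDN was at −5.34 ± 0.06 (SD, n = 3) in Old Late Sham and −5.12 ± 0.23 in Old Late IZ, and HRC at −2.59 ± 0.19 and −2.29 ± 0.15. The HRC ratio did separate in some groups. In Old Early the highest sham was at −2.33 and the lowest zone library at −2.27, and in Old Late at −2.45 and −2.41. In Young Early BZ the highest library, at −2.45, lay below the lowest sham, at −2.30. The separations thus went both ways, and their share over all genes was not counted. With libraries scaled to the reference genes in place of TMM, the 8 zone comparisons gave TRDN changes from −0.22 to 0.26 and HRC changes from −0.29 to 0.34, with a lowest adjusted p of 0.321 and 0.104. This scaling moved the median of all genes to between 0.11 and 1.46, so each value is relative to heart muscle genes and not to all genes. Against the TMM scale, the sign of TRDN turned in IZ of all 4 conditions and in Old Early and Old Late BZ, and that of HRC in both zones of Old Early and Old Late and in Young Late BZ.

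ATP2A2 did not follow the reference genes in the same way. Its ratio was −1.83, −1.45 and −2.04 in Young Early Sham and −0.44, −2.11 and 0.20 in Young Early IZ, and on the reference scale ATP2A2 rose by 1.25 in that zone (adjusted p = 0.0288, with 78.8% of all genes called). Replicate 2 lay just below the sham libraries and the other 2 IZ libraries above every sham library. In Young Late the ratio was −0.93, 0.26 and −0.20 in sham, −1.66, −1.87 and −1.63 in BZ and −2.53, −2.08 and −1.74 in IZ, and ATP2A2 fell by 1.87 in IZ on this scale (adjusted p = 0.00887, 26.7% of all genes called). In Old Late the ratio was 0.43, 0.20 and 0.17 in sham, −1.74, −1.38 and −1.07 in BZ and −2.11, −0.66 and −0.83 in IZ. It fell by 1.35 in IZ (adjusted p = 0.0199, 77.3% of all genes called) and by 1.65 in BZ (adjusted p = 0.0138, 37.3% called). In Old Early the changes of −0.49 in IZ and −0.39 in BZ were not called. The gene model of ATP2A2 is longer than those of TRDN and HRC, and scaling to reference genes does not take gene length out. The mean of the long minus short gene measure, described below, differed between sham and IZ. It was −0.30 and −0.06 in Young Early, 0.11 and −0.27 in Young Late, 0.28 and 0.01 in Old Early, and 0.52 and 0.24 in Old Late. Its part in the ratios was not tested.

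RYR2 was called lower on the reference scale in Young Late IZ, by 1.79 (adjusted p = 0.0311), and in Old Late BZ, by 1.63 (adjusted p = 0.0361), while −1.03 in Old Late IZ (adjusted p = 0.118) and 1.16 in Young Early IZ (adjusted p = 0.0793) were not called. SLC8A1 was called in Old Late BZ alone among the 8 comparisons, where it fell by 0.98 (adjusted p = 0.0183). Its changes in IZ ran from −0.47 to 0.64 on this scale.

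**Figure D3:**
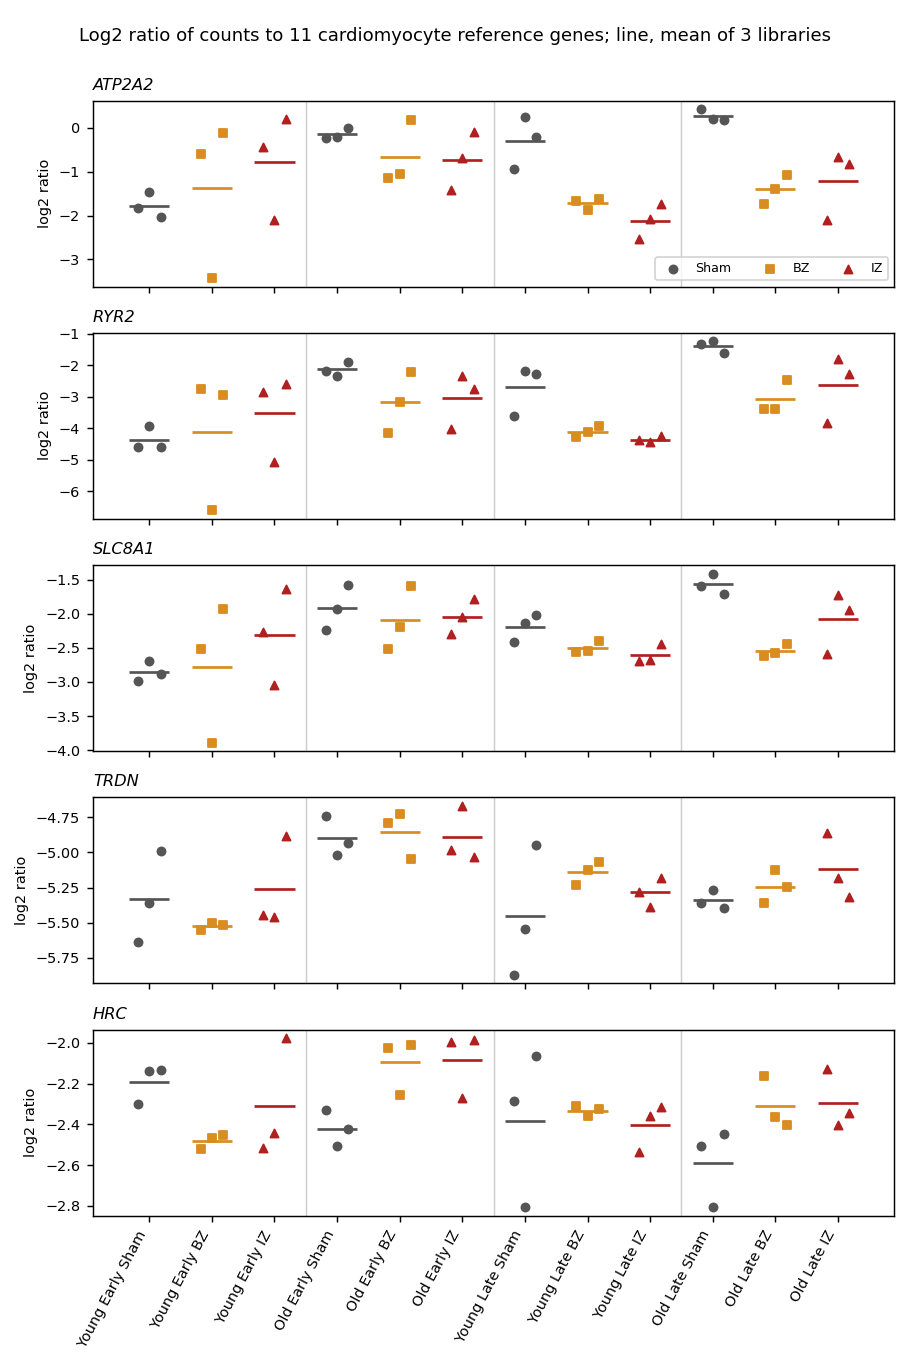
Log2 ratio of each gene's counts to the mean log2 count of 11 cardiomyocyte reference genes in the 36 libraries, by group (circles, sham; squares, BZ; triangles, IZ; line, mean of 3 libraries). All Old Late and Young Late zone libraries lie below their shams for ATP2A2, while HRC group means stay between −2.59 and −2.09.

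The design asks whether the response depends on the age at injury, and this was tested as the difference between the Old and the Young response to infarction. None of the 4 such comparisons called any of the 5 genes by edgeR, and DESeq2 and limma-voom called 0 in each. In Early IZ (0.915% of all genes called) 1 gene had an unadjusted p under 0.05, and in Early BZ (0.22%) 3 had. ATP2A2 differed by −1.46 ± 0.66 in Early IZ (adjusted p = 0.164) and by −1.78 ± 0.67 in Early BZ (adjusted p = 0.161), and RYR2 by −1.54 ± 0.83 and −2.33 ± 0.83 (adjusted p = 0.227 and 0.138), the Old response being the lower. These values depended on 1 pig. With 1 library left out at a time, Early IZ called 0 of the 5 in all 12 fits and Early BZ called 3 in the fit without Young Early BZ replicate 2. Without both libraries of the Young Early pig that stood apart, ATP2A2 differed by −1.84 in Early IZ (adjusted p = 0.00984) and −2.29 in Early BZ (adjusted p = 0.00853), and RYR2 by −1.96 (adjusted p = 0.0247) and −2.89 (adjusted p = 0.00899). SLC8A1 was then called as well in Early BZ, at −1.22 (adjusted p = 0.0152). With that pig left out 25.3% of all genes were called in Early IZ and 17.6% in Early BZ, so these 2 and 3 called genes stood against a far larger background.

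At 7 days the lowest p-values of the age comparison belonged to other genes of the set. In Late IZ (3.67% of all genes called) 3 genes had an unadjusted p under 0.05 and none was called: SLC8A1 at −1.14 ± 0.39 (adjusted p = 0.0861), TRDN at −0.95 ± 0.40 (adjusted p = 0.167) and HRC at −0.71 ± 0.34 (adjusted p = 0.234). ATP2A2 and RYR2 differed by −0.66 ± 0.66 and −0.39 ± 0.82. In Late BZ (1.09% of all genes called) SLC8A1 differed by −1.08 ± 0.39 (adjusted p = 0.142), the 1 gene with an unadjusted p under 0.05.

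The infarct zone response was also compared between 7 days and 1 day. In Young pigs (12.3% of all genes called, 6.12% higher) HRC was called, with a difference of 1.02 ± 0.34 (adjusted p = 0.0476), since it fell by 1.48 at 1 day and was at −0.46 at 7 days. TRDN differed by 1.04 ± 0.40 (adjusted p = 0.0777), ATP2A2 by −1.95 ± 0.67 (adjusted p = 0.0521) and RYR2 by −1.82 ± 0.83 (adjusted p = 0.133). The HRC call held in 3 of 12 fits with 1 library left out. Without the pig that stood apart, ATP2A2 (−2.32, adjusted p = 0.00125), RYR2 (−2.24, adjusted p = 0.0098) and HRC (1.08, adjusted p = 0.0281) were called, with 28.2% of all genes called. In Young pigs ATP2A2 and RYR2 thus had more negative values at 7 days, and HRC and TRDN values nearer to sham, with only HRC called over all libraries. The 11 cardiomyocyte reference genes had a median difference of 1.04 in the same comparison. Their part in these values was not tested. In Old pigs (4.53% of all genes called) the comparison of 7 days with 1 day called 0 of the 5, with 0 at an unadjusted p under 0.05 and 0 by DESeq2 and limma-voom, and its values ran from −1.15 ± 0.66 for ATP2A2 to −0.10 ± 0.40 for TRDN.

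Within groups, the levels moved with a property of the whole library. Libraries were compared by the median deviation of long genes (6133 bases or more) minus that of short genes (2591 bases or fewer), in log2 CPM. This measure ran from −0.93 in Young Early BZ replicate 2 to 0.57 in Old Late Sham, and in shams its mean was −0.30 in Young Early, 0.11 in Young Late, 0.28 in Old Early and 0.52 in Old Late. In BZ and IZ the mean was −0.34 and −0.06 in Young Early, −0.23 and −0.27 in Young Late, −0.01 and 0.01 in Old Early, and 0.03 and 0.24 in Old Late, below sham in both zones of every condition except Young Early IZ. In Young Early BZ this rested on replicate 2. Replicates 1 and 3, at −0.03 and −0.06, lay above every sham library (−0.37 to −0.26). Mean RNA integrity was 8.07 in Old Late Sham, 7.23 in Old Late BZ and 7.30 in Old Late IZ. The long minus short measure was then set against the genes over the 36 libraries, as deviations from group means. Its correlation was 0.90 with RYR2, 0.81 with ATP2A2, 0.67 with SLC8A1, −0.34 with TRDN and −0.57 with HRC. The first 3 have long gene models and the last 2 short ones, and both axes share the library's own scaling. With a smooth of each library's deviation on gene length taken out, 24 of 26 called values kept their call. In that fit ATP2A2 fell by 2.74 in Old Late IZ (adjusted p = 1.03e-05) and RYR2 by 2.24 (adjusted p = 0.000347), with 49.9% of all genes called. The difference of ATP2A2 between 3-day and 15-day shams was 0.99 (adjusted p = 0.0718), with 30.2% of all genes called. The smooth takes out only the average course over genes of a given length. A single gene can move by more: in Young Early BZ replicate 2 the measure deviated by −0.59, RYR2 by −2.23 and ATP2A2 by −1.78. Kept calls therefore do not decide the part of this library property in the changes, which was not tested.

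**Figure D4:**
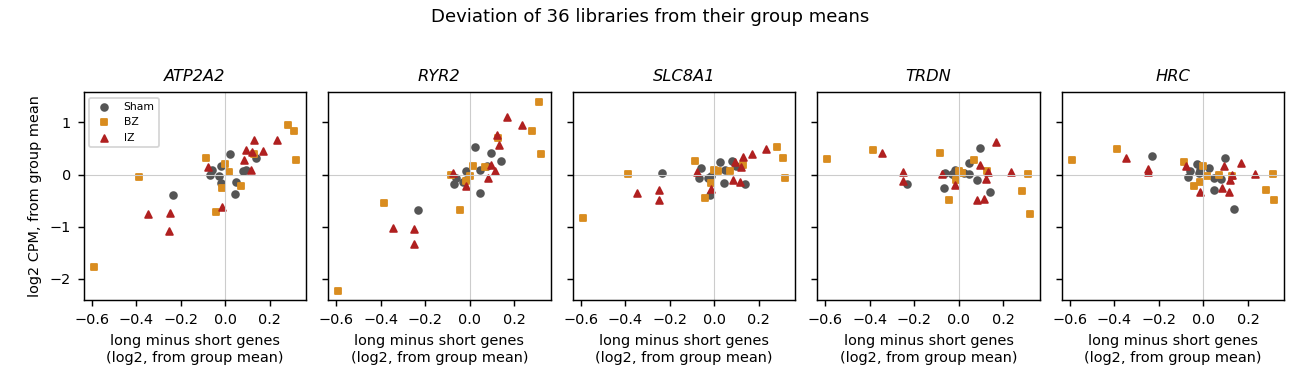
Deviation of log2 CPM from the group mean (y axis) against the deviation of the long minus short gene measure (x axis, log2) for each of 36 libraries, 1 panel per gene (circles, sham; squares, BZ; triangles, IZ). The library at the far left is Young Early BZ replicate 2, 0.59 below its group mean in the measure and 2.23 below it in RYR2 and 1.78 in ATP2A2.

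Among themselves the genes varied together to different degrees. Over the 36 libraries the log2 CPM of ATP2A2 had a correlation of 0.91 with RYR2 and 0.91 with SLC8A1, and TRDN one of 0.90 with HRC, while RYR2 and HRC had 0.18. SLC8A1 lay between, with 0.66 to TRDN and 0.59 to HRC, and over the 12 IZ libraries it had 0.62 and 0.57 with these genes, 0.67 with ATP2A2 and 0.59 with RYR2. Within groups the correlation was 0.93 between ATP2A2 and RYR2, 0.77 between TRDN and HRC, −0.20 between ATP2A2 and HRC, and 0.15 between SLC8A1 and TRDN. These are descriptions over libraries that share groups, pigs and the length measure above. Among 9837 other named genes (log2 CPM averaging 1 or more), the 3 most like ATP2A2 over the 36 libraries were PDLIM5 (r = 0.947), CACNB2 (0.942) and BCKDHB (0.936). For SLC8A1 they were NDUFS1 (0.959), DLD (0.955) and SLC25A12 (0.953). For TRDN they were HIBCH (0.911), RDH14 (0.908) and SIRT5 (0.906), and for HRC NDUFB6 (0.940), ACOT13 (0.938) and SIRT5 (0.937). NDUFS1 and NDUFB6 are subunits of respiratory complex I, and CACNB2 is a subunit of the L-type calcium channel.

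Of 18 listed partners and regulators of the reticulum 14 were tested. In Old Late IZ, where 49.1% of all genes were called and 24.0% lower, 7 fell and 3 rose, with a median of −0.84 against −0.04 over all genes. CAMK2D, the calcium-dependent kinase that phosphorylates the release channel, fell by 2.55 ± 0.43 there and CAMK2A fell by 2.71 ± 0.28. In Young Early IZ (27.2% of all genes called, 12.0% lower) 5 fell and 1 rose, among them TMEM38A, a potassium channel of the reticulum, by 1.51 ± 0.25. In Young Late IZ (30.2% called, 13.0% lower) 4 fell and 3 rose, and SRI, which encodes sorcin, a calcium-binding regulator of the release channel, rose by 1.22 ± 0.17. CAMK2D fell in Old Early, Young Late and Old Late in both zones (−2.55 to −1.37).

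Paralogs of the listed genes were counted apart, 7 of 10 tested. ATP2A3, a SERCA pump known from blood and endothelial cells, rose in Old Late IZ by 1.81 ± 0.36, in Old Early IZ by 1.53 ± 0.35 and in Young Late IZ by 0.97 ± 0.36. ATP2A1, the SERCA pump of fast skeletal muscle, had a mean of 0.264 CPM in Young Early Sham. SLC8A2, a second sodium-calcium exchanger gene, fell in Young Early IZ (−1.90 ± 0.31), Old Early IZ (−1.58 ± 0.31) and Young Late IZ (−1.20 ± 0.31). JPH1, a junctophilin that ties the reticulum to the surface membrane in skeletal muscle, fell by 2.78 ± 0.43 in Old Late IZ. In all, Old Late IZ had 4 paralogs higher and 2 lower, of 7, beside 49.1% of all genes called.

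Of 10 genes of calcium entry and the T-tubule 8 were tested, and in Old Late IZ 3 rose and 4 fell, beside the same 49.1% of all genes called. CACNB2 fell by 2.42 ± 0.47 and CACNA1G, a T-type calcium channel of the embryonic and conducting heart, rose by 3.86 ± 0.38 in IZ and 3.40 ± 0.38 in BZ. BIN1, which shapes T-tubules, rose by 1.60 ± 0.33 in Old Early IZ and 1.65 ± 0.33 in Young Late IZ. Of 16 other calcium transport genes, all tested, 8 rose and 2 fell in Young Early IZ (27.2% of all genes called), with a median of 0.78 against 0.08 over all genes. There MCU, the calcium channel of mitochondria, rose by 1.42 ± 0.24 and SMDT1, a part of the same channel complex, fell by 1.38 ± 0.28. In Old Late IZ 5 rose and 3 fell, a share close to the 49.1% of all genes called, with SLC8B1, the mitochondrial sodium-calcium exchanger, at 2.74 ± 0.38 and CALR, the calcium binder of the endoplasmic reticulum, at 1.48 ± 0.31, both called higher.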

How the data were processed

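Per the labels' protocols, stranded TruSeq libraries of polyA RNA were sequenced on an Illumina NextSeq as 76 bp paired ends. The tools named, in no stated order, are Trimmomatic 0.36, bcl2fastq 2.19.0.316, STAR and featureCounts (Subread 1.5.1), per the submitters' processing notes. Genome build, annotation and strand setting are not given in the sources used here. The deposited table holds whole-number read counts for each gene and library, with no normalization recorded, and gene lengths in bases, per the file headers.

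Genes were found by symbol through a pig gene name table. Counts were filtered with filterByExpr (minimum count 10, minimum total 15), scaled by TMM and tested with the quasi-likelihood method of edgeR 4.0.16 in R 4.3.3 (robust estimates of spread). Every group had its own mean, leaving 24 residual degrees of freedom, and libraries of 1 pig counted as independent. For IZ against BZ, the 24 libraries of infarcted pigs were fitted with a block for each animal (8 residual degrees of freedom). That both zones come from 1 pig is given by the titles, and the deviations of both zones of a pig correlated at 0.45 to 0.67, except in Young Late (−0.20 to −0.04). The individual label of Old Late BZ replicate 3 names another pig than its title, which was used. P-values of each of 22 comparisons received Benjamini-Hochberg adjustment across every gene in the fit.

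CPM values use TMM library sizes. Log2 ratios to reference genes use a pseudocount of 0.5 counts. The files of the samples gave no identical columns. Alternatives used DESeq2 1.42.0 and limma 3.58.1 (voom, animal as a random block), and each library was left out in turn. The gene length correction and the fit without 1 pig were chosen after seeing the data. The model was tested on simulated data. The listed genes, the other gene lists and the tests were chosen with earlier results of these data known. Named from the other lists are up to 3 called genes with the largest change per comparison and log2 CPM averaging 0 or more, and for each listed gene the 3 other genes with the highest correlation. Only a part of the genes so named is printed, chosen after their values were seen, and the genes most like RYR2 are not reported here. ATP2A1 is named outside this rule, after its values were seen. Counts limit the precision of values at low levels, and the 3 pigs per group that of all comparisons.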

Additional observations from a re-analysis of the deposited data

Results flagged for a closer look

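HRC in the infarct zone of Young pigs differed between 7 days and 1 day after surgery by 1.02 ± 0.34 on the log2 scale (edgeR quasi-likelihood test of the difference between the responses, adjusted p = 0.0476). It is listed here because the same contrast, infarct zone against sham, gave different changes at the 2 times. HRC fell in Young Early IZ with no overlap between the libraries, and the libraries overlapped in Young Late IZ, where 1 of 3 lay below every sham library. The call held in 3 of 12 fits with 1 library left out, and the difference then ran from 0.76 to 1.18. The 11 cardiomyocyte reference genes moved the same way, with a median difference of 1.04 and 3 of 11 called higher, and the part of heart muscle content in the HRC difference was not tested.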

How the results depend on the processing

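Of 30 called values 13 kept the call in every fit with 1 library left out. The number of the 5 genes called then ran from 2 to 3 in Young Early IZ, 3 to 5 in Old Early IZ, 2 to 4 in Young Late IZ, 5 to 5 in Old Late IZ, 0 to 2 in Old Early BZ, 0 to 2 in Young Late BZ, 2 to 3 in Old Late BZ, 0 to 2 in Young Early IZ against BZ, 0 to 0 in Old Late IZ against BZ, 0 to 3 in the Early BZ response by age (3 without Young Early BZ replicate 2), 0 to 2 in the Young IZ response by time and 0 to 2 in the Early shams by age. Scaled to cardiomyocyte genes, the count was 1 in Young Early IZ (with ATP2A2 higher), 0 in Old Early IZ, 1 in Old Late IZ, 0 in Old Early BZ and 0 in Young Late BZ. Signs of called or uncalled values turned there for ATP2A2 (1.25), RYR2 (1.16), SLC8A1 (0.64) and TRDN (0.0695) in Young Early IZ, SLC8A1 in Young Early BZ (0.27), TRDN in Young Late IZ (0.12), HRC in Young Late BZ (0.0208), and TRDN and HRC in Old Early IZ (0.00952 and 0.34), Old Late IZ (0.23 and 0.29), Old Early BZ (0.0464 and 0.33) and Old Late BZ (0.10 and 0.27). With RNA integrity as a covariate the count was 0 in Young Late BZ, in the Young IZ response by time and in the Early shams. The DESeq2 test called 2 in Young Late BZ, 2 in the Young IZ response by time and 1 in the Young shams by time. Without the replicate block, IZ against BZ called 1 in Young Early and 0 in Old Late, where DESeq2 size factors called 1 and the animal of the individual label 0. In limma-voom with the animal as a replicate block (correlation 0.378 between libraries of a pig) Old Early BZ called 2. The Young IZ response by time called 0 with no count filter and 0 with gene length taken out, and the Early shams 1 with gene length taken out and 1 with batch as a term (HRC; TRDN turned to −0.12), where HRC in the Late shams turned to 0.0534. Without the Young Early pig of BZ replicate 2 the count was 2 in the Early IZ response by age, 3 in the Early BZ response and 3 in the Young IZ response by time. The cause of these shifts was not tested, and fits with a library left out also have fewer samples. The count over all genes moved by over 1.5 times in 16 of 22 comparisons under alternatives that keep all libraries and scale to all genes, for example from 22 to 561 in Young Early BZ (162 as reported) and from 0 to 938 in the Early IZ response by age (133), which reached 3733 without the Young Early pig. In Young Late BZ it ran from 1372 to 2689 (2071 as reported) and in the Young IZ response by time from 599 to 2537 (1792). In the Early shams it ran from 1400 to 5076 (4516), and in Old Late IZ against BZ from 0 to 1013 (295). The counts of the 5 genes above moved beside these backgrounds, and the all-gene count of most single settings is not given here.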
